A study of Mus musculus with 2 samples.

Results

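Glucocorticoid activation and response genes were followed as 6 of the 28692 features counted in mesenchymal stromal cells (MSC) from intestinal grafts. They are Hsd11b1, which encodes the enzyme that makes active glucocorticoid from its inactive form, Nr3c1, which encodes the glucocorticoid receptor, and the hormone-responsive genes Fkbp5, Tsc22d3, Per1 and Zbtb16. The genes were picked by symbol, and earlier results of the same cells were known when they were picked, so the levels below describe the data and carry no test. Large intestine (LI) and small intestine (SI) from embryos labelled EYFP (C57BL/6), sired by EYFP males on C57BL/6Nrj dams, had been placed beneath the kidney capsule of adult WT mice, and the grafts were collected after 4 weeks. Live YFP+ Itgb1+ MSC that lacked CD45, Ter119, BP3, CD31, EpCAM and L1CAM were then sorted for single-cell (sc)RNA-seq, a gate meant to keep cells of the donor intestine, while blood supply and hormones came from the recipient. Each intestine gave 1 library, LI grafts had been pooled, how many grafts made up the SI library was not given in the sources used here, and no untreated or adult tissue was part of the comparison. Because each group had 1 library, no test between groups could be made, and a difference between LI and SI cannot be told apart from a difference between libraries, kits or pools of donors.

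Glucocorticoids are steroid hormones of the adrenal cortex. Target cells also set their own exposure, since 11beta-hydroxysteroid dehydrogenase type 1, the product of Hsd11b1, regenerates the active hormone inside the cell, while the type 2 enzyme, the product of Hsd11b2, inactivates it. The hormone binds the receptor, which leaves a complex with heat shock proteins, enters the nucleus and changes transcription. Among the genes it induces in many tissues, Fkbp5 encodes a co-chaperone that lowers the affinity of the receptor for its ligand, Tsc22d3 encodes the anti-inflammatory leucine zipper protein GILZ, Per1 encodes a component of the circadian clock, and Zbtb16 encodes the zinc finger repressor PLZF. In the gut, Hsd11b1 is known from stromal and immune cells and Hsd11b2 from the epithelium.

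For the 4 members whose reference entry could be used, the gene lies, in GRCm38 (mm10) coordinates of the GENCODE vM21 annotation, at chr1:193221634-193264075 on the minus strand for Hsd11b1, chr17:28399094-28517527 on the minus strand for Fkbp5, chrX:140539528-140600659 on the minus strand for Tsc22d3 and chr11:69095217-69109960 on the plus strand for Per1. Zbtb16 lies at chr9:48654297-48836222 on the minus strand. The 250 bases upstream of a RefSeq start site (GRCm38.p6) are shown 5′ to 3′ on the strand of the gene, to show where motif matches lie. Tsc22d3 and Per1 have further windows, which held none of the motifs searched. For each of them the window shown is the one with a match. Capitals mark the E-box CACGTG, the site of clock and other basic helix-loop-helix factors, in Fkbp5 and Per1, and TGTTCT, the reverse strand of AGAACA, in Tsc22d3. The window shown for Hsd11b1 held none of the motifs searched.
Hsd11b1, chr1:193242361-193242610, minus strand: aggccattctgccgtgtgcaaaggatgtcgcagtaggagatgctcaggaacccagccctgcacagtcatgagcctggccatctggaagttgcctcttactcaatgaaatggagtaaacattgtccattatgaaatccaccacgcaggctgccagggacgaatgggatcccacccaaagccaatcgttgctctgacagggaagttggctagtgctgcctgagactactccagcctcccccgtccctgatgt
Fkbp5, chr17:28486150-28486399, minus strand: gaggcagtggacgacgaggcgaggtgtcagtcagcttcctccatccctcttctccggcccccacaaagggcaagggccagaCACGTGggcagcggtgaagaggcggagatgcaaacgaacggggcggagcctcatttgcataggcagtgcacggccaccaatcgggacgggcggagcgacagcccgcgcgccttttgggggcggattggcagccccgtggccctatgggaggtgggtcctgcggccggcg
Tsc22d3, chrX:140600523-140600772, minus strand: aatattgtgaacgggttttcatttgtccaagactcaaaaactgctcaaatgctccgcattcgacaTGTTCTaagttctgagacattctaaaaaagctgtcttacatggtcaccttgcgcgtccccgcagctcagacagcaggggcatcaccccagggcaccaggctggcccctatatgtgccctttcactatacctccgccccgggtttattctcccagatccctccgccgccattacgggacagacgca
Per1, chr11:69098699-69098948, plus strand: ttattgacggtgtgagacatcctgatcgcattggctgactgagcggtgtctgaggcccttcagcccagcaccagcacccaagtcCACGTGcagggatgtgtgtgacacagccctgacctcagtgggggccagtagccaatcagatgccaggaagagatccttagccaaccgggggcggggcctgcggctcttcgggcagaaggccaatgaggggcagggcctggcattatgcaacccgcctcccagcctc

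In all, 7 windows of these 4 genes and 32851 windows of the table were searched on both strands. The palindromic glucocorticoid response element, AGAACA followed after 3 free bases by its reverse strand TGTTCT, was in 0 of the 7 windows and in 3 of all windows (0.00913%). AGAACA alone, which the full element also contains, was in 1 of the 7 and in 16.1% of all windows. CACGTG was in 2 of the 7 and in 6.02% of all, at 169 and 166 bases upstream of the start in Fkbp5 and Per1. The cyclic AMP response element TGACGTCA was in 0 of the 7 and in 1.55% of all. These matches describe the letters in short windows and say nothing of binding, which was not measured.

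The LI library held 11568 barcodes and 63348069 unique molecular identifiers (UMIs, each counted once per captured RNA molecule), and the SI library 9631 barcodes and 54918006 UMIs. Cells that passed the filter, with 500 genes or more and no more than 10% of UMIs from mitochondrial genes, numbered 9873 and 7910, with a median of 5288 and 5682 UMIs, and 26 barcode sequences occurred in both libraries. Fibroblasts (FB) made up 7835 LI cells (79.4% of those kept) and 5659 SI cells (71.5%). Each cell was given a class from its detected markers, and the FB were divided into PDGFRAhi FB (418 in LI and 310 in SI), Pi16 FB (522 and 336), CD81 FB (1346 and 1464), Fgfr2 FB (1728 and 1138) and other FB, which met no subset gate (3630 and 2277). The mural cells were pericytes (568 and 930), cells that met the pericyte and the smooth muscle gate (100 and 310) and smooth muscle cells (SMC, 416 and 498). Interstitial cells of Cajal (ICC, 316 and 42) were too few in SI to be compared, and the orders of classes below cover these 5 FB and 3 mural classes. No class had more markers of another class than of its own among its 10 leading genes, while other FB had 0 FB markers there. A gate that counts detected markers favours deep cells, and the median UMIs per cell ran from 4597 in pericytes to 8403.5 in Pi16 FB in LI and from 4558.5 in pericytes to 8945 in Pi16 FB in SI. Levels are given as CPM, the UMIs of a gene per 1000000 UMIs of all cells of a class, with exact Poisson 95% intervals, shares of cells with exact Clopper-Pearson intervals, and ratios as log2 of LI over SI with 1 CPM added to both. All intervals cover counting error only, not the spread between animals or grafts.

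**Figure D1:**
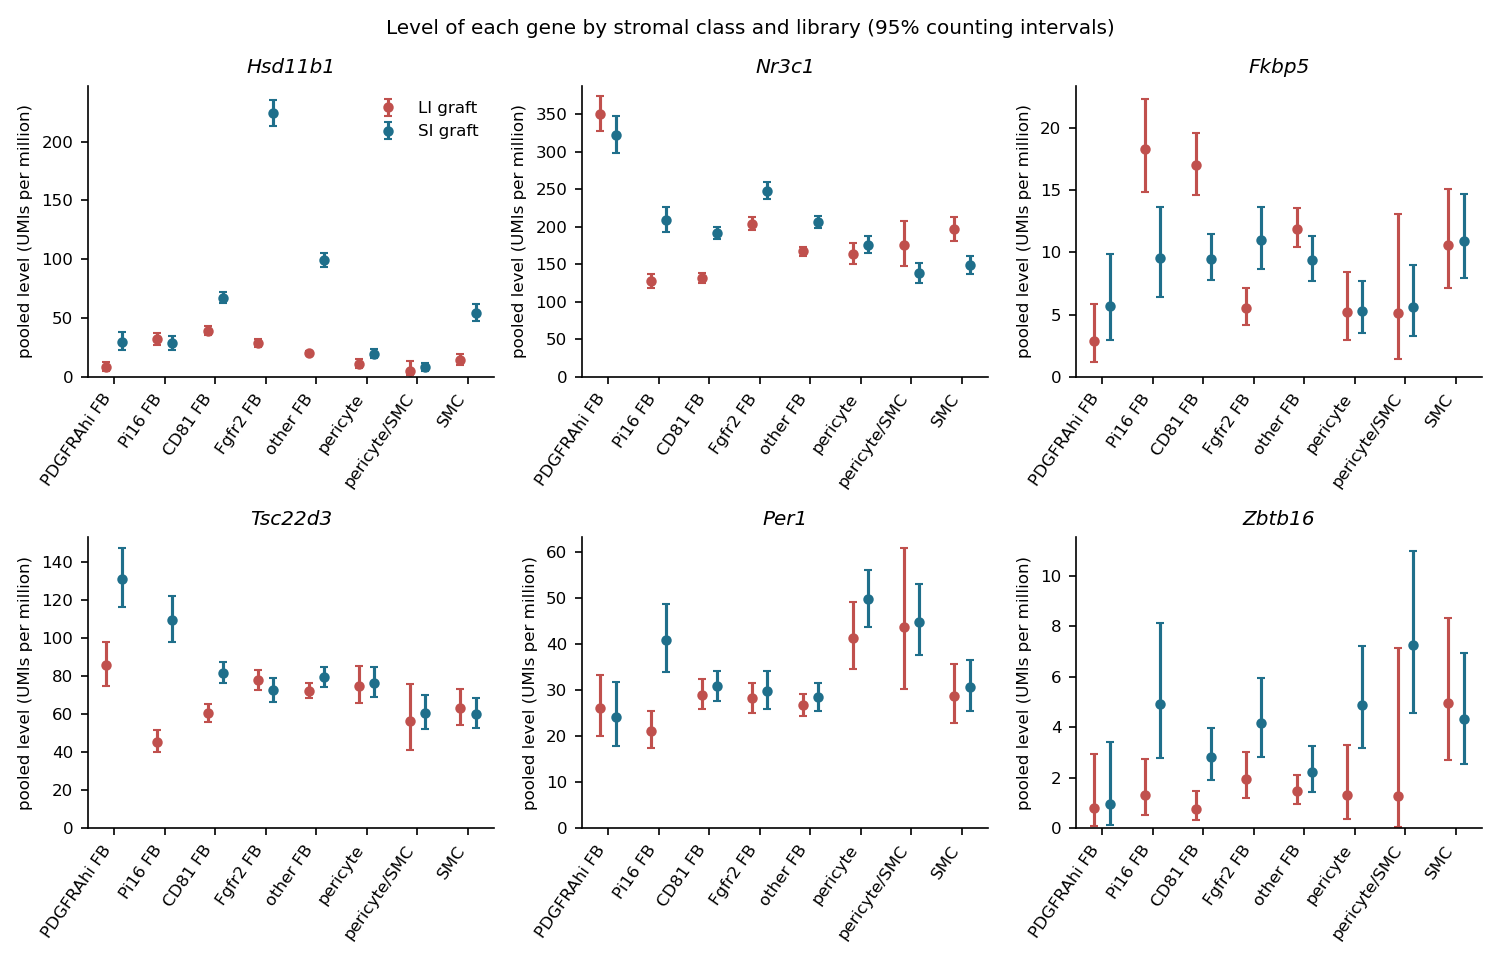
Pooled level of each gene in CPM (vertical axis, from 0) in 8 stromal classes (horizontal axis) of the LI graft (red) and the SI graft (blue), with bars for the exact Poisson 95% counting interval. Hsd11b1 of the SI graft stands at 224 CPM in Fgfr2 FB, and Nr3c1 is highest in PDGFRAhi FB in both libraries.

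Hsd11b1, the activating enzyme, was the member that differed most between the grafts. LI graft levels were 38.7 CPM in CD81 FB (35.1 to 42.6), 31.7 in Pi16 FB (27.1 to 36.9), 28.7 in Fgfr2 FB (25.6 to 32.2), 19.9 in other FB (18.0 to 22.0), 13.8 in SMC, 10.3 in pericytes, 8.13 in PDGFRAhi FB and 5.13 in pericyte/SMC cells. SI graft levels were 224 CPM in Fgfr2 FB (214 to 236), 98.9 in other FB (93.3 to 105), 67.2 in CD81 FB (62.5 to 72.2), 54.0 in SMC (47.0 to 61.8), 29.3 in PDGFRAhi FB, 28.3 in Pi16 FB, 19.5 in pericytes and 7.90 in pericyte/SMC cells. Pi16 FB led in LI instead in female cells alone and with a stricter gate, and LI CD81 FB had 21.0 CPM in female and 68.5 CPM in male cells. In male cells alone, where 4 classes could be compared, Fgfr2 FB led in both libraries. Over all cells the order had a different leader in each library, with a 28.4-fold span from the highest to the lowest class in the SI graft and a 7.55-fold span in the LI graft. In the SI graft the Fgfr2 FB were 3.09-fold above the remaining FB (log2 1.61, 1.52 to 1.71), where 1.41% of genes were at least 2-fold higher, and in the LI graft they did not differ from them beyond counting error over all cells (0.10, -0.09 to 0.28), although the 66 male cells were at 105 against 51.4 CPM (1.02, 0.60 to 1.42). Intervals of neighbours in the order overlapped for 6 of the 7 neighbouring pairs in the LI graft, so most of its order was not resolved by counting, and for 2 of the 7 in the SI graft.

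Across all FB, Hsd11b1 had 1356 UMIs in LI and 3757 UMIs in SI, which gave 27.2 CPM (25.8 to 28.7) and 102 CPM (99.2 to 106). The level was 3.77-fold higher in the SI graft, with a log2 ratio of -1.87 (-1.96 to -1.79). Hsd11b1 was the only one of the 5 members at 10 CPM or more that was at least 2-fold apart in FB. Of the 8625 genes at that level, 1.66% were at least 2-fold higher in SI. In male FB alone it was below 2-fold (log2 -0.81), and Nr3c1, Fkbp5 and Tsc22d3 were past it, where 5.33% of genes were at least 2-fold higher in LI and 7.61% in SI. The difference was 7.81-fold in Fgfr2 FB (log2 -2.92, -3.10 to -2.75), 4.97-fold in other FB (-2.26, -2.42 to -2.09), 3.91-fold in SMC (-1.89, -2.39 to -1.42) and smallest of these in PDGFRAhi FB (log2 -1.73, -2.44 to -1.04). At least 2-fold higher in the SI graft were 2.19% of genes in Fgfr2 FB, 1.74% in other FB, 3.01% in SMC and 4.39% in PDGFRAhi FB. Among SI SMC the level was not uniform, as given with the clusters below. The ratio was smaller in pericytes (-0.86, -1.42 to -0.31) and CD81 FB (-0.78, -0.95 to -0.61), and in Pi16 FB the libraries did not differ beyond counting error (0.16, -0.21 to 0.54).

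**Figure D2:**
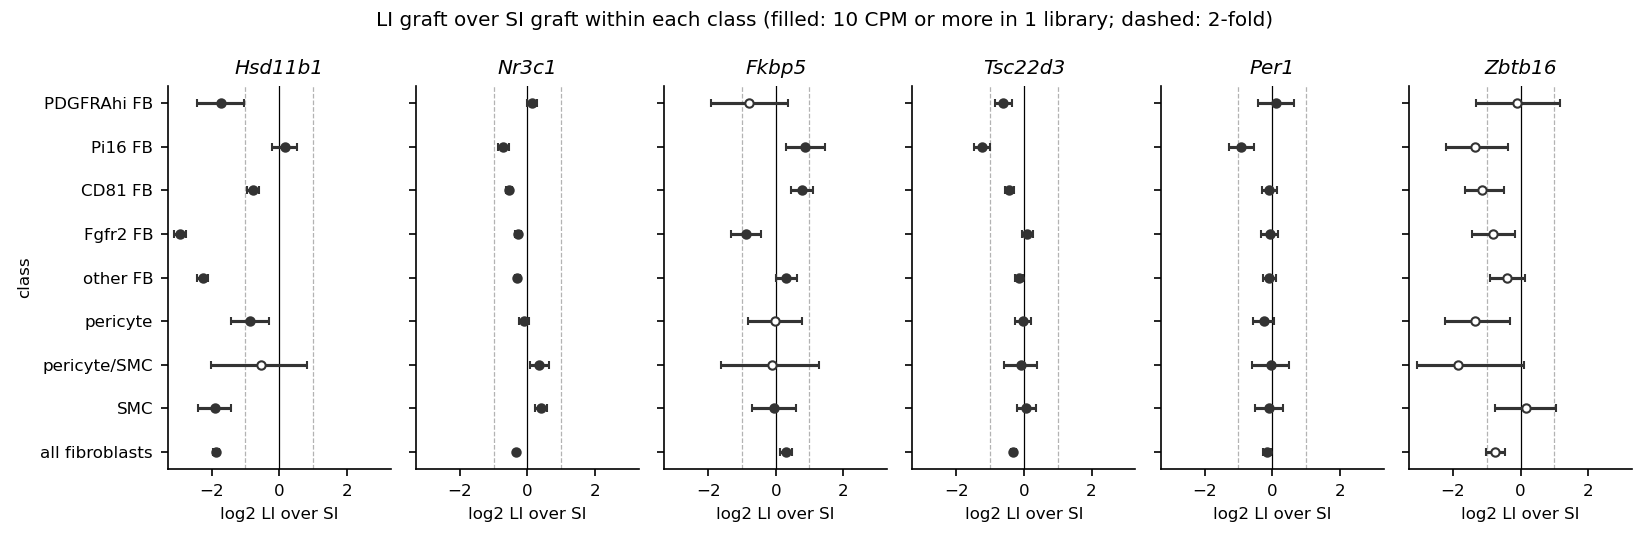
Log2 ratio of LI over SI level (horizontal axis) for each gene in each class and in all fibroblasts (vertical axis), with bars for the 95% interval of an exact binomial split, filled points where a library reached 10 CPM and dashed lines at 2-fold. Hsd11b1 lies left of the dashed line in Fgfr2 FB at -2.92, and the other members lie closer to 0 in that class.

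At least 1 Hsd11b1 UMI was found in 781 LI FB (9.97%, 9.31 to 10.7) and in 1499 SI FB (26.5%, 25.3 to 27.7). In Fgfr2 FB the share was 10.2% in LI and 43.8% in SI. Free RNA can give such UMIs to cells that do not express the gene, and in pericytes, where the gene was low, the share was 3.70% and 4.52% at a median of 4597 and 4558.5 UMIs, against medians of 5318 and 5843.5 in Fgfr2 FB. With every cell thinned to 2000 UMIs, which left out 433 LI and 319 SI FB that were shallower, the share in all FB was 3.99% and 13.9%. It was 4.73% and 25.6% in Fgfr2 FB, 5.90% and 9.72% in CD81 FB, 5.04% and 4.52% in Pi16 FB and 1.65% and 1.92% in pericytes. Barcodes under 500 genes, which hold little RNA, had 6.63 CPM in the LI library and 12.9 CPM in the SI library, below every FB subset of the same library, although the interval of LI PDGFRAhi FB included that level.

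The high level in SI Fgfr2 FB was carried by a minority of cells. Of the 1138 cells, 640 had no Hsd11b1 UMI, 200 had 1, and 95 (8.35%) had 5 or more. Those 95 cells held 53.9% of the Hsd11b1 UMIs of the class, and the highest cell held 28. In LI Fgfr2 FB, 8 of 1728 cells (0.463%) had 5 or more, and the highest cell held 12.

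Clusters were built in each library without the 6 genes. Of the 95 cells, 39 were in a cluster led by Igfbp3 and Agt, 27 in one led by Cd74 and Serpina3f and 10 in one led by Epha5 and Adamdec1. These clusters held 220, 140 and 425 Fgfr2 FB. Their median UMIs per cell were 4931, 8443 and 5141, and a limit of 5 UMIs favours deep cells. Among SI clusters the level was 434 CPM (404 to 465) in a cluster of 361 cells led by Igfbp3, Agt, Col6a5, Sertm1 and Wnt4, of which 220 were Fgfr2 FB. It was 188 CPM in a cluster of 535 cells led by Cd74, Serpina3f, H2-Ab1 and Saa3, 142 CPM in a cluster of 502 cells led by Wif1, Col7a1, Inhba and Saa3, and 121 CPM in a cluster of 1019 cells led by Epha5, Adamdec1 and Col6a5. The Igfbp3 cluster was therefore above the other Fgfr2-rich cluster by more than the counting intervals. Among SI clusters of at least 50 cells the lowest level, 2.19 CPM, was in a cluster of 781 cells led by Vtn, Higd1b and Gja4, mostly pericytes. Among LI clusters the highest level was 84.6 CPM (76.4 to 93.3) in a cluster of 651 cells led by Areg, Ereg, Ttyh1, Alpl and Grem1, followed by 40.5 CPM in a cluster led by Kcnn3 and Car8. The LI clusters rich in Fgfr2 FB, led by Col6a5 and Tnfsf9 and by Cxcl13 and Edil3, had 14.7 CPM and 28.1 CPM. Clusters rich in SMC differed within SI. The SI cluster led by Npnt and Hhip, with 240 SMC and 95 FB, had 49.6 CPM (40.4 to 60.2). The SI cluster led by Actg2 and Cnn1, with 61 SMC, had 5.31 CPM (1.72 to 12.4). The LI cluster led by Cnn1 and Actg2, with 279 SMC and 151 FB, had 4.46 CPM (2.23 to 7.98). It held 11 Hsd11b1 UMIs, against 39 in all LI SMC.

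**Figure D3:**
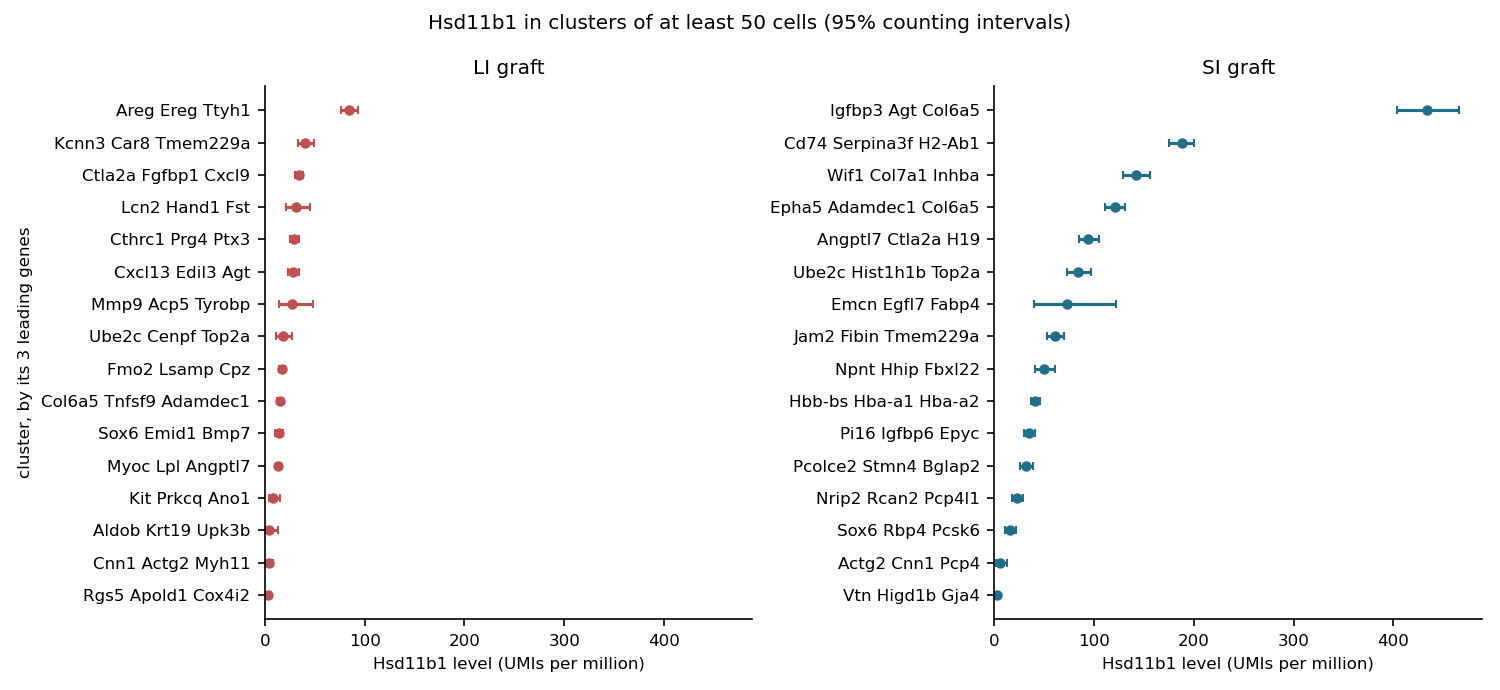
Hsd11b1 level in CPM (horizontal axis, from 0) in each cluster of at least 50 cells, named by its leading genes (vertical axis), for the LI graft and the SI graft, with exact Poisson 95% intervals. The SI cluster led by Igfbp3 and Agt stands at 434 CPM, and the highest LI cluster, led by Areg and Ereg, at 84.6 CPM.

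Nr3c1, the receptor, was detected in every class at levels that spanned less than Hsd11b1. Its LI graft level was 351 CPM in PDGFRAhi FB (328 to 375), 204 in Fgfr2 FB, 196 in SMC, 176 in pericyte/SMC cells, 167 in other FB, 164 in pericytes, 131 in CD81 FB and 127 in Pi16 FB. Its SI graft level was 322 CPM in PDGFRAhi FB (298 to 347), 248 in Fgfr2 FB, 209 in Pi16 FB, 206 in other FB, 191 in CD81 FB, 176 in pericytes, 148 in SMC and 138 in pericyte/SMC cells. PDGFRAhi FB, which line the epithelium and supply it with signals, were thus the highest class in both libraries, with intervals clear of the next class. Against the remaining FB the level was 2.17-fold higher in the LI graft (log2 1.11, 1.01 to 1.21) and 1.54-fold higher in the SI graft (0.62, 0.50 to 0.73), and 5.26% of genes in LI and 7.91% in SI were at least 2-fold higher in these cells. The same cells had low Hsd11b1, at 8.13 against 28.2 CPM in the remaining LI FB (log2 -1.68) and 29.3 against 107 CPM in the remaining SI FB (-1.83), where 3.50% of genes were at least 2-fold lower in both libraries.

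Between the grafts, Nr3c1 in all FB was 171 CPM in LI and 216 CPM in SI (log2 -0.33, -0.38 to -0.29). The ratio was -0.71 in Pi16 FB (-0.87 to -0.55) and -0.54 in CD81 FB (-0.64 to -0.44), 0.12 in PDGFRAhi FB (-0.02 to 0.27), and had the opposite sign in SMC (0.40, 0.23 to 0.57). No class reached 2-fold. A UMI of Nr3c1 was found in 60.5% of LI FB and 68.0% of SI FB, and after thinning to 2000 UMIs in 30.6% and 36.1% of FB and in 47.8% and 47.7% of PDGFRAhi FB. Its lowest share among the 8 classes after thinning was 24.0% in LI CD81 FB and 25.4% in SI SMC, and the share in ICC was 19.2% and 15.8%.

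Fkbp5, the co-chaperone, was a low transcript whose order of classes differed between the grafts. The level in LI was 18.3 CPM in Pi16 FB (14.9 to 22.4), 17.0 in CD81 FB (14.6 to 19.7), 11.9 in other FB, 10.6 in SMC, 5.53 in Fgfr2 FB (4.19 to 7.17), 5.17 in pericytes, 5.13 in pericyte/SMC cells and 2.84 in PDGFRAhi FB (1.14 to 5.86). The level in SI was 10.98 CPM in Fgfr2 FB (8.69 to 13.7), 10.9 in SMC, 9.53 in Pi16 FB, 9.49 in CD81 FB, 9.37 in other FB, 5.66 in PDGFRAhi FB, 5.60 in pericyte/SMC cells and 5.28 in pericytes. No neighbours in the SI order were separated by their intervals. Fgfr2 FB of the LI graft lay 2.52-fold below the remaining FB (log2 -1.19, -1.55 to -0.85), where 2.13% of genes were at least 2-fold lower. In the SI graft the same ratio was 0.20 (-0.15 to 0.53). Within a sex the LI ratio was below 2-fold, at -0.90 in female cells (-1.32 to -0.49) and -0.51 in male cells (-1.47 to 0.33), and the SI ratio was -0.07 and 0.56 (0.04 to 1.06).

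Over all FB the level of Fkbp5 was 12.2 CPM in LI, from 609 UMIs, and 9.76 CPM in SI, from 358 UMIs (log2 0.30, 0.12 to 0.47). The ratio was 0.88 in Pi16 FB (0.31 to 1.46) and 0.78 in CD81 FB (0.46 to 1.11), and -0.87 in Fgfr2 FB (-1.32 to -0.43). Higher values in LI for the first pair and in SI for the last thus partly cancelled in the sum over FB, and each was below 2-fold. In cells of 4000 to 8000 UMIs the ratio over all FB was -0.13, so its sign rested on cells outside that range of depth. Among clusters of at least 50 cells, the highest levels were 30.2 CPM in the LI cluster led by Ctla2a, Fgfbp1 and Cxcl9, 25.1 CPM in the LI cluster led by Areg and 20.4 CPM in the SI cluster led by Cd74. The share of FB with a UMI was 6.64% in LI and 5.65% in SI, against 2.82% and 2.90% of pericytes, and 2.07% and 1.69% of FB after thinning.

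Tsc22d3, which encodes GILZ, was highest in PDGFRAhi FB among the 8 classes compared in both grafts, at 85.7 CPM in LI (74.5 to 98.1) and 131 CPM in SI (116 to 148). The next LI class, Fgfr2 FB, was at 77.8 CPM (72.5 to 83.3), with overlapping intervals, LI ICC had 101 CPM (85.8 to 118), and the lowest was Pi16 FB at 45.5 CPM (39.97 to 51.7). Among SI classes Pi16 FB came next at 109 CPM (98.0 to 122), and SMC were lowest at 60.1 CPM. Pi16 FB, adventitial cells that express Pi16 and Dpp4, thus stood at the bottom in LI and near the top in SI. Within them Tsc22d3 was 2.40-fold higher in the SI graft (log2 -1.25, -1.49 to -1.01), where 2.53% of the 8386 genes at 10 CPM or more were at least 2-fold higher in SI. The difference was 52.3 against 112 CPM in female and 20.7 against 99.5 CPM in male Pi16 FB, the sex of a cell being read from its Xist and Y-linked UMIs. Over all FB the level was 67.7 CPM in LI and 84.6 CPM in SI (-0.32, -0.39 to -0.25), and in Fgfr2 FB the ratio was 0.10 (-0.06 to 0.26). The LI clusters high in Fkbp5 were low in Tsc22d3, at 23.6 CPM in the Ctla2a cluster and 37.0 CPM in the Areg cluster. The LI cluster led by Cthrc1 and Prg4 was also low, at 25.8 CPM, with 14.4 CPM Fkbp5. In the SI graft the cluster led by Sox6, Rbp4 and Pcsk6, mostly PDGFRAhi FB, reached 152 CPM.

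Per1, the clock component, was highest in pericytes and pericyte/SMC cells. In the LI graft it was 43.6 CPM in pericyte/SMC cells, 41.4 in pericytes and 28.9 in CD81 FB, down to 21.2 in Pi16 FB (17.4 to 25.5). In the SI graft it was 49.6 CPM in pericytes, 44.8 in pericyte/SMC cells and 40.8 in Pi16 FB (33.9 to 48.6), down to 24.1 in PDGFRAhi FB. Pericytes and pericyte/SMC cells together exceeded FB by a log2 of 0.61 (0.38 to 0.84) in LI and 0.65 (0.49 to 0.82) in SI, below 2-fold in each. SMC, at 28.6 and 30.6 CPM, did not differ from FB beyond counting error. The libraries differed in Pi16 FB (-0.91, -1.28 to -0.55) and by -0.15 over all FB. Per1 is also an immediate early gene, and in barcodes under 500 genes it was 61.0 CPM in LI and 63.3 CPM in SI, higher than in any of the 8 classes compared, although the intervals overlapped those of pericytes. The summed level of 9 dissociation and stress genes, among them Fos, Jun and Egr1, was 17373 CPM in LI Pi16 FB and 26093 CPM in SI Pi16 FB. These genes moved with Per1 in that class but not in every class. In PDGFRAhi FB their sum was 26962 CPM in LI and 12172 CPM in SI, while Per1 was 26.0 and 24.1 CPM. Among LI classes the sum was highest in Fgfr2 FB, at 30742 CPM, against 23139 CPM in pericytes. The part of these genes in the Per1 ratio was not tested.

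Zbtb16, the repressor PLZF, was near the limit of detection. It was below 10 CPM in each of the 8 classes compared, with 66 UMIs in LI FB and 106 in SI FB, or 1.32 and 2.89 CPM. The highest levels were 4.95 CPM in LI SMC (2.71 to 8.31) and 7.24 CPM in SI pericyte/SMC cells (4.54 to 10.97), and the lowest of the 8 were 0.740 CPM in LI CD81 FB and 0.944 CPM in SI PDGFRAhi FB. Barcodes under 500 genes had 7.96 and 3.22 CPM from 6 and 3 UMIs. The levels in classes were thus no higher than in poor barcodes within counting error, and no difference between the grafts is drawn from them.

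Across classes, the profiles of the members resembled each other weakly or moderately. Over 21 profiles of class by library, which share libraries and differ in depth, Pearson's r of log2 levels was 0.52 between Hsd11b1 and Fkbp5, 0.56 between Nr3c1 and Tsc22d3, -0.40 between Nr3c1 and Fkbp5 and -0.47 between Fkbp5 and Tsc22d3. Fkbp5 also had an r of 0.54 with the median UMIs per cell. Among 8854 genes ranked by the same measure, the closest to Hsd11b1 were Lepr (r 0.90), which encodes the leptin receptor, Tm7sf3 (0.86), Ifi27l2a (0.85), an interferon-induced gene, Fam198b (0.84) and Lhfpl2 (0.81). The closest to Nr3c1 were Bmp2 (0.93), a ligand made next to the epithelium, Lamb1 (0.90), a laminin chain, 1700025G04Rik (0.88), Nr1h4 (0.87), the bile acid receptor FXR, and Hspa1a (0.86). For Fkbp5 they included Hdlbp (0.85), 6030419C18Rik, Phlda3 and Osr1 (0.83 each), and for Tsc22d3 they were Tpcn1 (0.84), Oxr1 and Eps15 (0.81 each), Spast and Chmp3 (0.80 each). For Per1 they were Tifa (0.86), Arid5a, Midn and Zc3h12a (0.85 each) and Fosl2 (0.84), of which Zc3h12a encodes an RNase that limits inflammatory transcripts. For Zbtb16 the highest were Rusc2 (0.77), Shroom3 (0.75), Ak3 and Ptrf (0.72 each) and Mmp17 (0.71), all for a gene below 10 CPM in the 8 classes compared.

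The other genes of the pathway were read from a list of 47, of which Cebpd was not analysed here and 15 were below 10 CPM in FB of both libraries. Of the 31 counted, 3 were at least 2-fold higher in LI (9.68%, against 1.92% of all genes counted) and 0 were at least 2-fold higher in SI, against 1.66%. The median log2 ratio of the list was 0.06, beside -0.01 over all genes. All 3 were response genes. Errfi1, a feedback inhibitor of EGF receptor signalling, was 191 CPM in LI and 83.6 CPM in SI (1.18, 1.13 to 1.24), Mt2, a metallothionein, was 184 and 84.3 CPM (1.11, 1.06 to 1.17), and Ddit4, an inhibitor of mTORC1 signalling, was 48.9 and 23.0 CPM (1.06, 0.95 to 1.17). In cells of 4000 to 8000 UMIs 0 of the list were 2-fold apart, and with each cell weighted equally only Errfi1 was.

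Among steroid enzymes and transporters, 2 of 10 were counted and neither reached 2-fold. H6pd, whose product supplies the cofactor for the reductase activity of the Hsd11b1 enzyme, was 37.9 CPM in LI and 36.2 CPM in SI (0.06, -0.03 to 0.16), and Hsd11b2, the inactivating enzyme, was 7.72 and 10.96 CPM (-0.46, -0.64 to -0.27). H6pd thus lacked the difference seen for Hsd11b1. Of the adrenal cortex markers, Cyp11b1 had 0 UMIs in FB of both libraries, which allows up to 0.0602 CPM in LI and 0.0818 CPM in SI by a limit of 3 counts, and the summed level of all 5 was 7.74 and 3.27 CPM, of which Star made up 6.70 and 3.22 CPM. The 7 counted receptor partners, chaperones such as Hsp90ab1 and Fkbp4, were all slightly higher in LI with a median log2 of 0.09 and 0 past 2-fold, and the 9 coregulators had a median of -0.06 and 0 past 2-fold. The 13 counted response genes had a median of 0.24. Sgk1, a kinase, was 63.4 and 42.5 CPM (0.57), Dusp1, a MAP kinase phosphatase, 1166 and 989 CPM (0.24), Klf9, a zinc finger factor, 379 and 427 CPM (-0.17) and Mt1 970 and 863 CPM (0.17). Nr3c2, which encodes the mineralocorticoid receptor, was at 2.11 and 1.66 CPM. Of 12 clock genes other than Per1, 9 were counted and 0 were 2-fold apart, with a summed level of 416 CPM in LI FB and 396 CPM in SI FB.

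**Figure D4:**
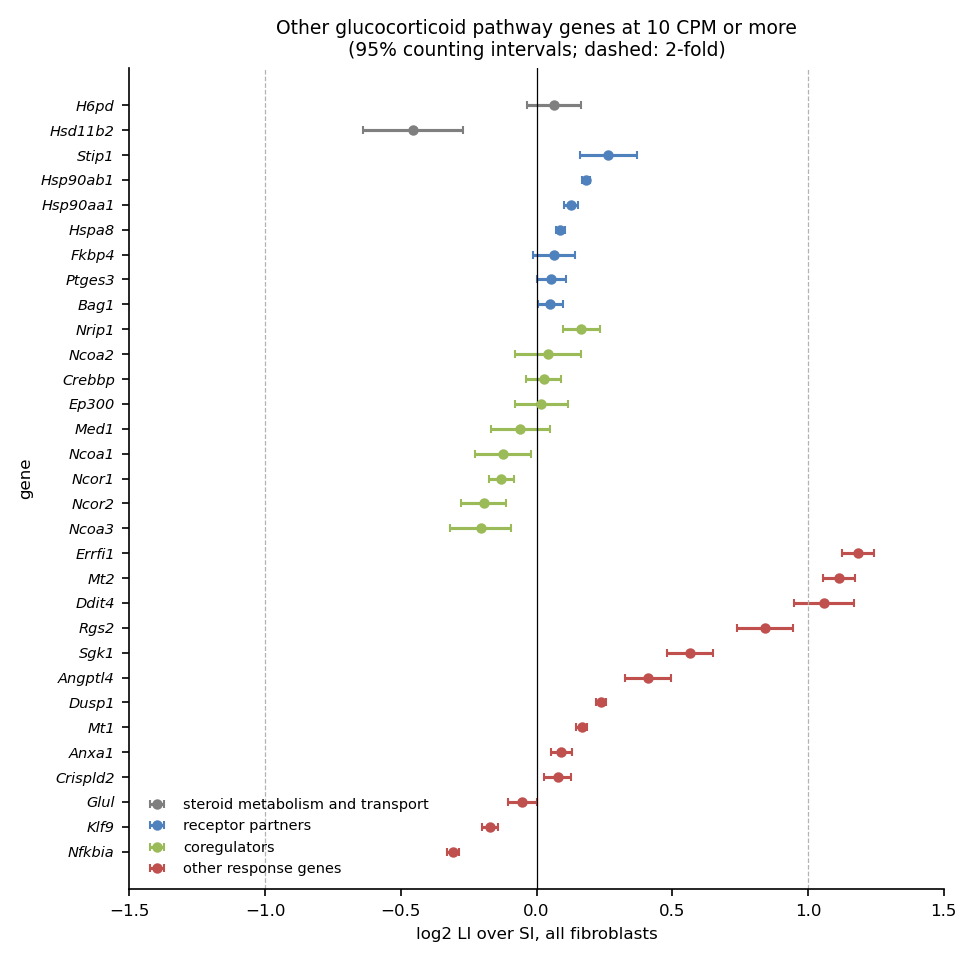
Log2 ratio of LI over SI level in all fibroblasts (horizontal axis) for the 31 other pathway genes at 10 CPM or more, grouped by role in colour (vertical axis), with 95% intervals from an exact binomial split and dashed lines at 2-fold. Errfi1, Mt2 and Ddit4 lie past the dashed line on the LI side at 1.18, 1.11 and 1.06, and no gene lies past it on the SI side.

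Fibroblasts with MHC class II transcripts, which interferon induces, were compared with those without, a split chosen after interferon-induced genes had been seen to lead clusters high in Fkbp5 and Hsd11b1, so the values describe partly the same cells and are no independent support. Cells with UMIs of at least 2 of the 4 markers H2-Aa, H2-Ab1, H2-Eb1 and Cd74 numbered 1142 in LI and 1053 in SI, and cells with none 5537 and 3724. The former were deeper, with medians of 8148 and 7790 UMIs against 5140 and 5417.5. Fkbp5 was 23.2 against 8.999 CPM in LI (log2 1.28, 1.04 to 1.51) and 18.3 against 6.82 CPM in SI (1.31, 1.005 to 1.61). Both ratios were past 2-fold, as were those of 0.783% of the genes counted. Male cells made up more of the marker-positive FB, and within a sex Fkbp5 was 12.4 against 7.34 CPM in female and 31.5 against 23.2 CPM in male LI FB, and 11.96 against 6.55 CPM in female and 20.3 against 6.999 CPM in male SI FB. It was past 2-fold in male SI FB and below it in the other 3 groups. Hsd11b1 was 39.5 against 23.2 CPM in LI (0.74, 0.57 to 0.91) and 144 against 86.3 CPM in SI (0.73, 0.63 to 0.83), higher in both but below 2-fold. Within LI, however, Hsd11b1 was lower with the markers in male FB, at 49.0 against 73.6 CPM, and 24.0 against 18.7 CPM in female FB. Within SI it was 132 against 94.7 CPM in female FB and past 2-fold in male FB, at 135 against 64.7 CPM. Nr3c1 went the other way (-0.73 and -0.28), as did Tsc22d3 (-0.69 and -0.20). Within a sex Tsc22d3 of LI FB was 72.8 against 78.2 CPM in female and 29.3 against 31.3 CPM in male cells, and Nr3c1 was 157 against 197 CPM and 77.8 against 105 CPM. In SI FB Tsc22d3 was 81.1 against 83.8 CPM in female and 74.3 against 97.99 CPM in male cells, and Nr3c1 was 203 against 222 CPM and 175 against 225 CPM. In cells of 4000 to 8000 UMIs the ratio of Fkbp5 was 0.65 in LI (0.08 to 1.19) and 1.20 in SI (0.67 to 1.72), that of Hsd11b1 0.96 and 0.58, and that of Tsc22d3 -0.07 and -0.05. The part of depth in these ratios was not tested further.

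Both libraries held cells of both sexes by Xist and the Y-linked genes Ddx3y, Eif2s3y, Kdm5d and Uty, and the sexes were unevenly spread. The study states that both sexes of mice were used in its experiments, but the sex of donors and recipients of these grafts was not given. As kidney tubule, 3 LI and 11 SI cells were gated, of which 3 and 10 were female and 0 were male. Whether all cells of both sexes came from donors was not tested. There were 6415 female and 707 male FB in LI and 3311 female and 1306 male FB in SI, and male FB were deeper, with medians of 8817 against 5257 UMIs in LI and 7917.5 against 5428 in SI. In the LI library, 375 of the 889 male cells sat in the cluster led by Ctla2a, Fgfbp1 and Cxcl9, 326 in the Areg cluster and 85 in a cluster led by Lcn2 and Hand1, where 91.0%, 83.8% and 94.4% of the cells with a readable sex were male, while the share was at most 6.23% in every other LI cluster. In the SI library the Cd74 cluster, high in Hsd11b1 and Fkbp5, was 84.8% male and the Wif1 cluster 0.208% male, while the Igfbp3 cluster held 189 female and 81 male cells. Donor, recipient, graft, sex and state can therefore not be told apart in these clusters. LI male FB had 55.9 CPM Hsd11b1 against 19.1 in female FB (2.92-fold, log2 interval 1.32 to 1.68), 27.7 against 7.86 CPM Fkbp5 (1.69, 1.44 to 1.95), 86.1 against 192 CPM Nr3c1 (-1.15, -1.27 to -1.03) and 29.9 against 77.7 CPM Tsc22d3 (-1.35, -1.56 to -1.15). All 4 of these members were at least 2-fold apart, beside 4.75% of genes higher and 9.39% lower in male LI FB. In cells of 4000 to 8000 UMIs the ratios were 2.63, 1.89, -0.97 and -0.89. Low Nr3c1 and Tsc22d3 were not confined to male LI cells. The LI cluster led by Cthrc1 and Prg4, of 424 cells at a median of 14321.5 UMIs, held 355 female and 0 male cells. It had 83.5 CPM Nr3c1 and 25.8 CPM Tsc22d3, near the 84.4 and 23.6 CPM of the Ctla2a cluster.

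In the SI graft the sexes did not differ in Hsd11b1 beyond counting error, with 98.9 CPM in male and 101 in female FB (log2 -0.03, -0.13 to 0.08), and differed little in Nr3c1 (-0.10) and Tsc22d3 (0.11, -0.01 to 0.22). Fkbp5 was 12.9 CPM in male against 7.29 in female SI FB (0.74, 0.43 to 1.06), the same direction as in LI. None reached 2-fold, while 1.19% of genes were at least 2-fold higher in male SI FB. Compared within a sex, Hsd11b1 was 19.1 CPM in LI and 101 CPM in SI for female FB, 5.27-fold higher in SI (-2.34, -2.46 to -2.22), and 55.9 and 98.9 CPM for male FB (-0.81, -0.98 to -0.64). In female FB the other members differed little between the libraries, with ratios of -0.20 for Nr3c1, 0.09 for Fkbp5 (-0.17 to 0.36), -0.08 for Tsc22d3 (-0.17 to 0.01) and 0.10 for Per1 (-0.05 to 0.25). In male FB they were -1.25 for Nr3c1, 1.04 for Fkbp5 (0.74 to 1.35) and -1.54 for Tsc22d3 (-1.75 to -1.32). The differences between the libraries in Nr3c1, Fkbp5 and Tsc22d3 over all FB were therefore larger in male than in female cells, and that of Hsd11b1 was larger in female cells.

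**Figure D5:**
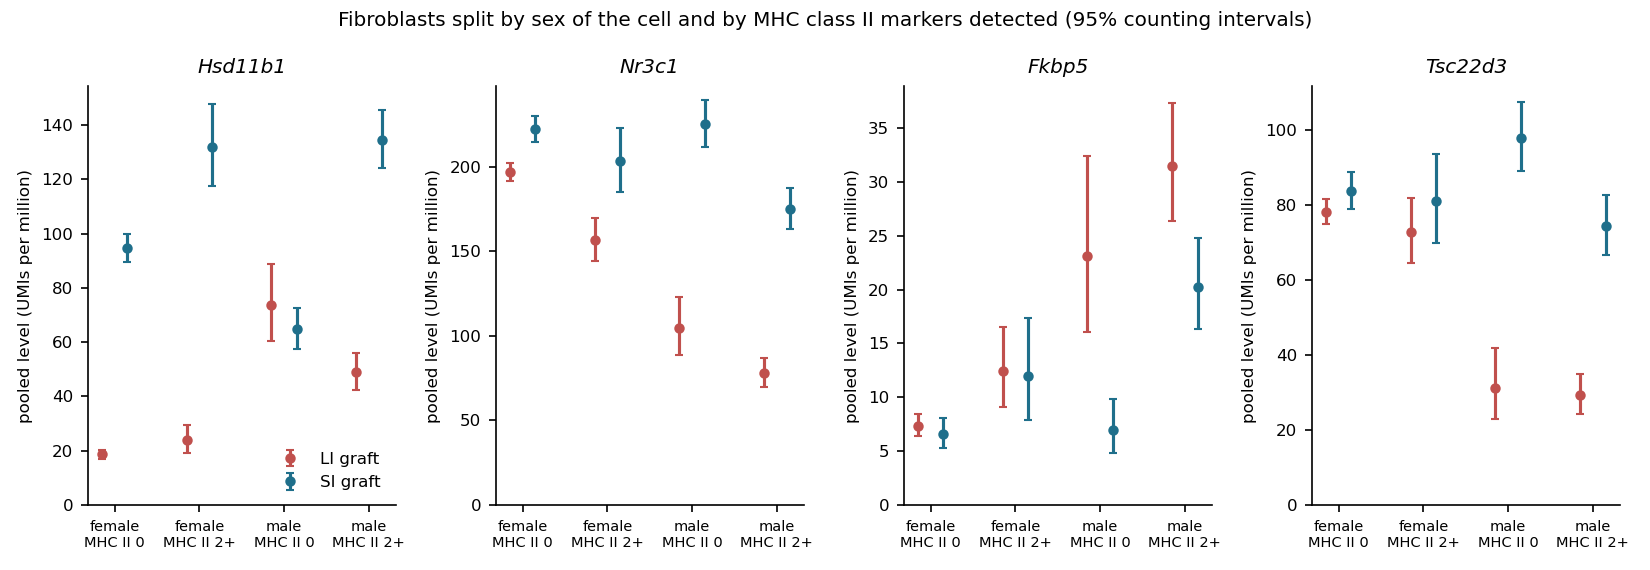
Pooled level in CPM (vertical axes, from 0) of Hsd11b1, Nr3c1, Fkbp5 and Tsc22d3 in fibroblasts of the LI graft (red) and the SI graft (blue), split by the sex of the cell and by 0 or at least 2 MHC class II markers detected (horizontal axis), with exact Poisson 95% intervals. Hsd11b1 of female cells is lower in LI than in SI in both splits, and Tsc22d3 is lowest in male LI cells.

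Split by both, male FB without an MHC class II marker had 73.6 CPM Hsd11b1 in LI (197 cells) and 64.7 CPM in SI (623 cells), a log2 ratio of 0.18 (-0.15 to 0.50), so that the grafts did not differ in Hsd11b1 beyond counting error in this split. Female FB without a marker had 18.7 and 94.7 CPM (-2.28), female FB with at least 2 markers 24.0 and 132 CPM (-2.41), and male FB with at least 2 markers 49.0 and 135 CPM (-1.44). Within Fgfr2 FB, where the contrast between the grafts was largest, Hsd11b1 was 20.1 CPM (17.3 to 23.3) in female and 105 CPM (80.3 to 136) in male LI cells, and 213 and 225 CPM in female and male SI cells. The low level of LI Fgfr2 FB was thus that of its 1566 female cells, while 66 male cells were nearer to the SI level.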

How the data were processed

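MSC of 1 LI graft library and 1 SI graft library were profiled on the 10x Genomics Chromium system, with a 3′ or a 5′ kit that was not named per library. Per the submitters' processing notes, the reads were processed with Cell Ranger 3.1.0 on mm10, with Seurat 3 named for later steps, and the authors deposited raw UMI counts per gene and barcode, without normalization. The annotation release was not given in the sources used here. No cell annotation was used from the study.

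Barcodes with under 500 genes or over 10% of UMIs from mitochondrial genes were dropped. A cell was called FB from at least 5 of 7 markers, and subsets, pericytes and SMC from 3 to 6 markers of their lists, with thresholds set after the cells had been seen. Cells that met gates of separate lineages were left out as possible doublets, and FB tied between subsets counted only in all FB. Scrublet, run as a doublet caller, marked 0 LI barcodes and 1 SI barcode and was not relied on. Leiden clusters (scanpy 1.11.5, 30 principal components, 20 neighbours, resolution 0.8) were built per library without the members. A cell was female with Xist and no Y-linked UMI, and male with a Y-linked UMI and no Xist. CPM are UMIs per 1000000 UMIs of a class, computed with numpy 2.4.6 and scipy 1.17.1 under Python 3.11.15. Ratios carry a pseudocount of 1 CPM, and a gene was counted from 10 CPM in 1 group and called past 2-fold. The ratio interval was tested on simulated data. There was no test between groups, since each had 1 library. TMM factors came from edgeR 4.0.16 under R 4.3.3.

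The members and lists were chosen with earlier results of these data known. Named were the 6 members, pathway genes 2-fold apart in FB, 8 further pathway genes fixed by name, and the 5 genes most like each member among genes reaching 20 CPM in a profile, of which 1 is not reported here. Cluster leaders are named to identify clusters. RefSeq sequences and motif matches cover 4 members, Zbtb16 had no entry in the table, and Nr3c1 sequence was not used here. Alternatives changed the cell filter, doublet removal, classing, gate, averaging, scaling, sex, pseudocount, minimum and thinning, and restrictions to cells of 4000 to 8000 UMIs and to male cells, and splits of classes within a sex, were chosen after seeing the data.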

Additional observations from a re-analysis of the deposited data

Results flagged for a closer look

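For 48 pairs of a member and a split of the cells within a library, the sign of the split was compared between the LI and the SI graft. In 6 of them the log2 ratio had opposite signs with both counting intervals off 0 and the gene at 10 CPM or more, and the difference between the libraries was not tested, since each had 1 library. In Pi16 FB against the remaining FB, Hsd11b1 had a log2 ratio of 0.24 in LI (31.7 against 26.7 CPM) and -1.91 in SI (28.3 against 109 CPM), a gap of 2.15. The LI sign held in female cells (0.73, 30.3 against 17.8 CPM) and was turned in male cells (-1.69, 18.4 against 61.5 CPM), while both sexes of SI were negative (-1.65 and -1.80). In the same split Tsc22d3 had -0.62 in LI (45.5 against 70.4 CPM) and 0.41 in SI (109 against 82.4 CPM), a gap of -1.02, and Per1 had -0.37 and 0.47, a gap of -0.85. Within a sex both kept these signs, with intervals that included 0 for male LI cells in both genes and for male SI cells in Tsc22d3. In CD81 FB against the remaining FB, Hsd11b1 had 0.67 in LI (38.7 against 24.0 CPM) and -0.81 in SI (67.2 against 118 CPM), a gap of 1.47. The LI ratio was 0.15 in female cells (-0.11 to 0.41), within counting error, and 0.52 in male cells, with 21.0 and 68.5 CPM in CD81 FB. In Fgfr2 FB against the remaining FB, Tsc22d3 had 0.25 in LI and -0.27 in SI, a gap of 0.52, and within a sex the signs held, although the interval included 0 in female LI cells (0.12) and in male SI cells (-0.14). In SMC against FB, Nr3c1 had 0.20 in LI (196 against 171 CPM) and -0.54 in SI (148 against 216 CPM), a gap of 0.74, and the 23 male LI SMC went the other way (-1.60).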

How the results depend on the processing

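Hsd11b1 was the only member at least 2-fold apart between FB of the grafts under 11 of the 12 alternatives run for that count, with a log2 ratio of -2.34 to -1.74 over all FB and -4.44 to -2.77 in Fgfr2 FB. The exception was male cells only, where Hsd11b1 was at -0.81 over all FB and -1.09 in Fgfr2 FB, and 3 members, Nr3c1, Fkbp5 and Tsc22d3, were 2-fold apart, where 5.33% of all genes were at least 2-fold higher in LI and 7.61% in SI, against 1.92% and 1.66% over all FB. The members highest in the same class in both libraries were 2 (Nr3c1 and Tsc22d3) as reported, 4 in female cells only, with Fkbp5 and Per1, and 3 under other settings (Nr3c1, Tsc22d3 and Per1 with a stricter gate or the mean per-cell CPM, Nr3c1, Fkbp5 and Per1 with classes from clusters). Only members that reached 10 CPM entered this count. Zbtb16, highest in SMC of both libraries with classes from clusters, was below that minimum and was left out. The count was also 2 in cells of 4000 to 8000 UMIs (Nr3c1 and Fkbp5). It was 2 in male cells as well (Hsd11b1 and Nr3c1, both in Fgfr2 FB), with 4 classes compared and PDGFRAhi FB too few. The pathway genes 2-fold apart were 3 as reported, 1 with the mean per-cell CPM, 0 in cells of 4000 to 8000 UMIs and 7 in male cells, beside the same shares of all genes. With a pseudocount of 5 CPM, Ddit4 was no longer past 2-fold. Both restrictions, of depth and to male cells, were chosen after the data had been seen. The cause of these shifts was not tested. Of 204 recomputed ratios of single genes, 193 kept the sign reported and 64 moved by more than the counting interval. No paired analysis was possible because each group had 1 library, and for the same reason no library could be left out. Zbtb16, below 10 CPM in the 8 classes compared, was limited by depth, and gates favoured deep cells. The kit of each library and the number of SI grafts were not given in the sources used here, so the difference between grafts and that between libraries cannot be told apart.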
